A study of Mus musculus with 74 samples.

Results

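The comparison concerns the mouse cell lines labelled S3KO and S3WT 2 and 4 h after the start of TGF-β treatment. It rests on 12 of the 74 dual-channel arrays of the series, chosen by title: 6 of S3KO (3 at 2 h and 3 at 4 h) and 6 of S3WT (3 at 2 h and 3 at 4 h). According to the labels, each of these arrays paired total RNA of untreated cells (channel 1) with total RNA of TGF-β-treated cells of the same line and time (channel 2). The labels do not say what S3 means. The design matches a published study of embryonic fibroblasts from Smad3-null and wild-type mice, in which S3 stands for Smad3. No dose, clone or embryo number is given, nor whether the numbered arrays came from separate cultures, so the spread behind each p-value may be only technical.

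A further 12 arrays of the 2 lines, 3 each at 0 and at 0.3 h, gave the baseline. The labels name RNA without TGF-β in both channels of the 0 h arrays. At 0.3 h, the S3WT labels name no TGF-β in channel 1 and TGF-β in channel 2. The S3KO labels at 0.3 h name no TGF-β in both channels. The baseline is therefore untreated for S3KO by its labels and partly treated for S3WT. The S3KO group at 1 h, with 2 arrays, was left out. Outside the comparison, 24 arrays of the lines S2WT and S2KO (0, 0.3, 2 and 4 h, 3 each) served to pick responding probes on RNA that is not part of the S3 comparison. In the matching study S2 stands for Smad2, and the S2KO arrays were labelled by channel like those of S2WT.

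TGF-β binds a pair of receptor kinases, and the type I receptor phosphorylates Smad2 and Smad3. These join Smad4 in the nucleus and bind, with partner proteins, at target genes, among them genes for inhibitors of the pathway such as Smad7, SnoN (Skil) and the Smurf ubiquitin ligases. In fibroblasts TGF-β is known for inducing extracellular matrix, contractile and growth factor genes.

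Each value is a log2 ratio of the channels of 1 array, centred on the median of that array, and so shows the response to TGF-β within a line and not the level of a transcript. No source states which channel is the numerator. Channel 2 over channel 1 was assumed and is the likelier reading, because Hbegf, a known TGF-β-induced gene, had 2.36 ± 0.27 (SE) at 2 and 4 h in the S2 lines relative to 0 and 0.3 h (limma, adjusted p = 9.35e-05). The ratio compares RNA of 1 line with RNA of the same line, so the Smad3 probes do not test whether S3KO lacks Smad3, and cell type markers do not test what the cells are. The 3 Smad3 probes gave S3KO minus S3WT differences of 0.21, -0.40 and -0.92. The most precise of them lay between 0.01 and 0.11 on 5 of the 6 S3KO arrays and at -0.03 on the other. On the S3WT arrays the same probe had 0.11, 0.06 and 0.28 at 2 h and -0.58, -0.63 and -0.21 at 4 h.

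Spot intensities were not used here, so precision was judged from the number of arrays and the spread between them. Of 8976 probes, 5793 had a value on all 12 arrays and 8349 on at least 2 arrays of each of the 4 groups. Agreement between arrays was low: over all probes, pairs of S3KO arrays at 2 and 4 h correlated at r = 0.036 to 0.390 (15 pairs) and pairs of S3WT arrays at 0.017 to 0.220 (15 pairs), while pairs across the lines gave 0.016 to 0.231 (36 pairs). The S3KO arrays at 0 h did not resemble each other: replicate 3 correlated at -0.047 and -0.044 with replicates 1 and 2. Replicates 1 and 2 correlated at -0.109 to -0.034 with the S3KO arrays at 2 and 4 h (12 pairs) and at -0.103 to -0.016 with those at 0.3 h (6 pairs). Replicate 3 correlated at 0.052 to 0.366 with the S3KO arrays at 2 and 4 h (6 pairs) and at 0.056 to 0.308 with those at 0.3 h (3 pairs). Baseline results without replicate 3, and without replicates 1 and 2, are therefore given in a later paragraph. The arrays numbered 3 also correlated with each other across times, at 0.275 to 0.390 in S3KO (6 pairs) and 0.208 to 0.302 in S3WT (6 pairs), against -0.103 to 0.218 and 0.001 to 0.259 for different numbers (36 pairs each), and across the lines at 0.125 to 0.274 (16 pairs). The labels do not say what a number stands for. Markers of other cell types were measured only as ratios. At 2 and 4 h, 4 of 7 leukocyte, 3 of 3 epithelial and 4 of 8 endothelial probes had the higher value in S3KO (50.3% of all probes). Their part in the results was not tested.

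No probe passed the test between the lines. In the direct comparison of the 6 S3KO with the 6 S3WT arrays, with time as a factor, 0 of 8349 probes (0%) had an adjusted p below 0.05 in limma, where the smallest adjusted p was 0.440. At an unadjusted p below 0.05 there were 726 probes (8.7%), of which 311 (3.72%) had the higher value in S3KO and 415 (4.97%) the lower. The median standard error of a difference was 0.22. All 6 S3KO arrays lay below all 6 S3WT arrays for 48 of 5793 probes (0.829%) and above them for 30 (0.518%). After subtraction of the mean of each line at 0 and 0.3 h, 0 of 7612 probes (0%) passed, with a smallest adjusted p of 0.102, and 558 (7.33%) had an unadjusted p below 0.05, 256 (3.36%) with the higher and 302 (3.97%) with the lower value in S3KO. The differences below are therefore given as values.

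The gene with the smallest p in both comparisons was Bhlhe40, a transcriptional repressor of the circadian clock that is known as a TGF-β target. On the S3WT arrays its log2 ratio was 1.33, 1.30 and 1.28 at 2 h and 0.52, 0.86 and 0.53 at 4 h. On the S3KO arrays it was -0.08, 0.15 and 0.18 at 2 h and 0.02, 0.14 and 0.33 at 4 h. The 6 S3WT values were all above the 6 S3KO values, and the S3WT values at 2 h were all above those at 4 h. The means over both times were 0.97 ± 0.38 (SD, n = 6) in S3WT and 0.13 ± 0.14 (SD, n = 6) in S3KO. The difference was -0.84 ± 0.15 (SE; limma, unadjusted p = 1.96e-04, adjusted p = 0.440).

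At 0 and 0.3 h the lines overlapped for Bhlhe40: S3WT had -0.39, -0.21 and -0.02 at 0 h and -0.10, 0.43 and 0.14 at 0.3 h, and S3KO had 0.30, 0.52 and -0.11 at 0 h and 0.18, 0.13 and 0.69 at 0.3 h. After baseline subtraction the difference was -1.15 ± 0.20 (SE; limma, adjusted p = 0.102). It passed the threshold when only probes present on every array were tested (limma, adjusted p = 0.0301) and with array quality weights (limma, adjusted p = 0.0459). It also passed without replicate 3 of S3KO at 0 h, at -1.24 (limma, adjusted p = 0.0124). It did not pass in 9 of the 11 alternative settings, nor in 23 of the 24 fits with 1 array left out. The difference between the lines was -1.22 at 2 h and -0.47 at 4 h. The change of the difference with time was 0.75 ± 0.22 (SE; limma, adjusted p = 0.988). In the S2 lines Bhlhe40 had 0.76 ± 0.22 (SE) and did not pass (limma, adjusted p = 0.125).

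**Figure D1:**
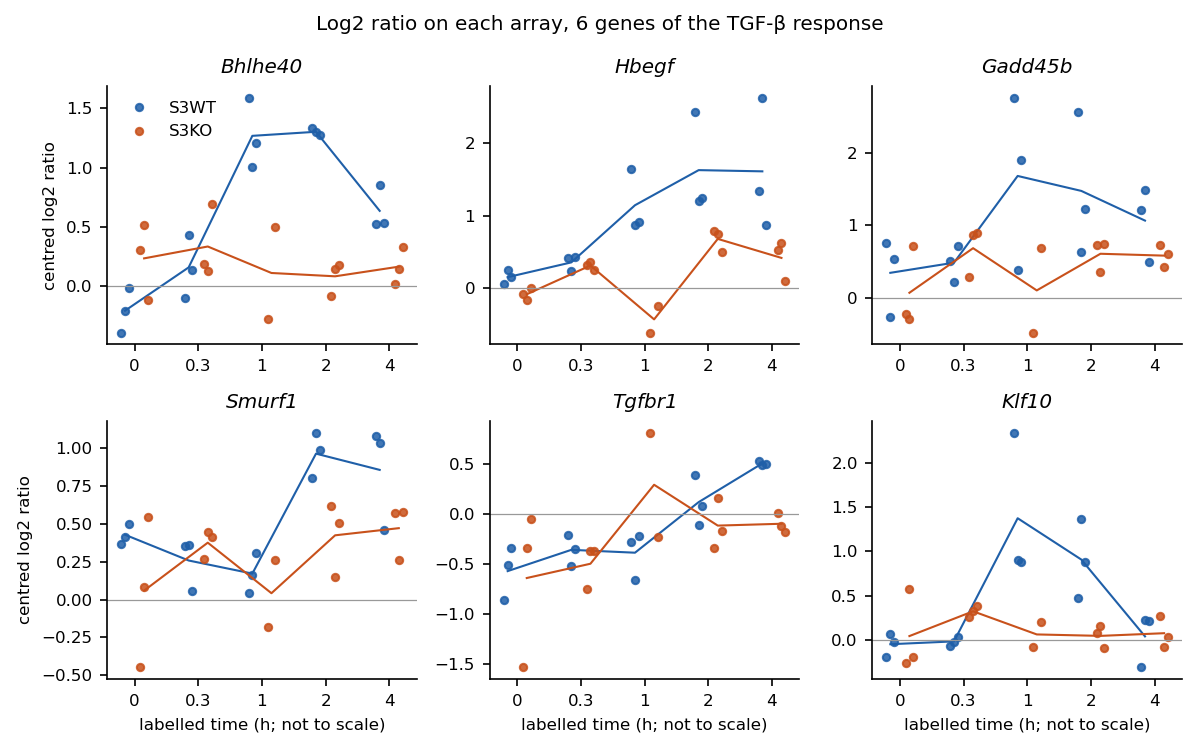
Centred log2 ratio of channel 2 over channel 1 (vertical axis) on each S3WT (blue) and S3KO (orange) array by labelled time, for 6 genes known from the TGF-β response; points are arrays and lines join the group means. Bhlhe40 in S3WT lay at 1.28 to 1.33 at 2 h against -0.08 to 0.18 in S3KO, and the 1 h arrays are drawn although the comparison leaves them out.

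Whether the genes that respond to TGF-β in other cells of the series also responded in these lines was examined with probes chosen on the S2 arrays. There, 91 of 7628 probes (1.19%) passed limma at 2 and 4 h against 0 and 0.3 h, 70 of them raised (0.918%) and 21 lowered (0.275%). The 70 raised probes include those of 53 named genes, among them Hbegf, Csdc2, Noct, Ccn1, Gadd45b, Creb3l2, Skil, Snai1 and Smurf1.

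Of the 70 S2-raised probes, 69 could be tested between the S3 lines. The value was below 0 for 60 of the 69, that is, lower in S3KO, against 49.7% of all probes tested, and their median difference was -0.24 against 0.00 for all probes. An unadjusted p below 0.05 with the lower value in S3KO was found for 13 of the 69 (4.97% of all probes). With the higher value it was found for 0 of the 69 (3.72% of all probes), and none passed after adjustment. After baseline subtraction 58 of 69 were below 0 (50.7% of all probes) and the median was -0.22 (-0.01 for all probes). The 21 S2-lowered probes lay on the other side: 17 of 20 tested were above 0 (50.3% of all probes), with a median of 0.20, and 14 of 19 (49.3% of all probes) after baseline subtraction, with a median of 0.21. Because the S2 arrays chose the probes, these counts describe the S3 arrays, and nothing was tested over the list as a whole.

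The mean over the S2-raised probes was also taken on each array. It was 0.47 ± 0.22 (SD, n = 6) on the S3WT arrays at 2 and 4 h, with a range of 0.24 to 0.84. On the S3KO arrays it was 0.25 ± 0.04 (SD, n = 6), with a range of 0.20 to 0.32, so the groups overlapped at the low end of S3WT. At 0 and 0.3 h the means were 0.07 ± 0.12 (SD, n = 6) in S3WT and 0.11 ± 0.14 (SD, n = 6) in S3KO. The 6 baseline arrays of S3KO ran from -0.05 to 0.25 and overlapped the S3KO arrays at 2 and 4 h, while those of S3WT ran from -0.13 to 0.20 and lay below all S3WT arrays at 2 and 4 h. The S2-lowered probes had -0.31 ± 0.20 (SD, n = 6) on S3WT arrays at 2 and 4 h and -0.04 ± 0.12 (SD, n = 6) on S3KO arrays, and the ranges of -0.61 to -0.13 and -0.16 to 0.17 met at their edges.

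**Figure D2:**
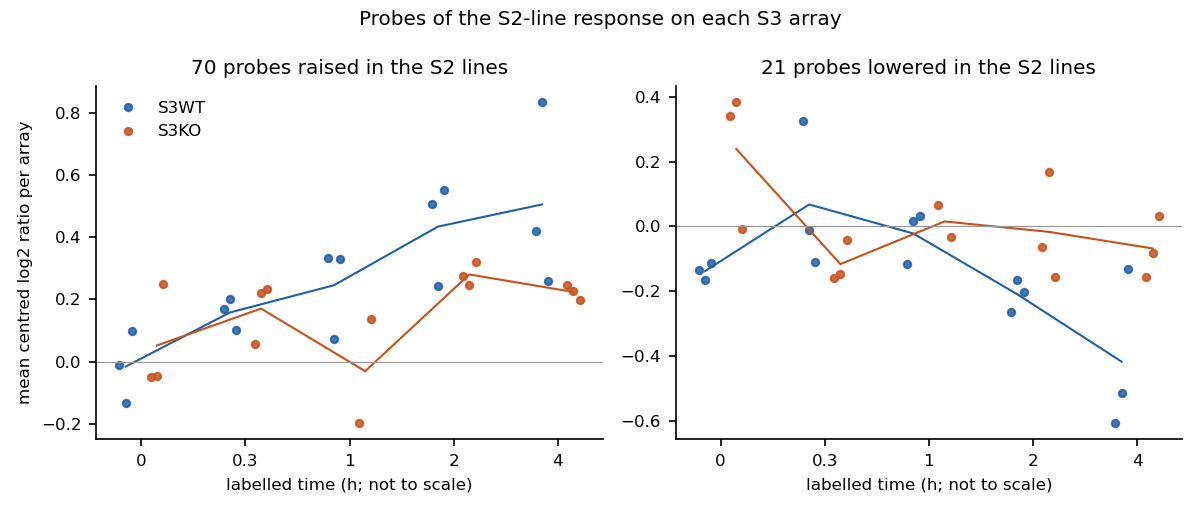
Mean centred log2 ratio per array (vertical axis) over the 70 probes raised (left) and the 21 lowered (right) in the S2 lines, by labelled time for S3WT (blue) and S3KO (orange); points are arrays and lines join group means. At 2 and 4 h the raised probes averaged 0.24 to 0.84 on S3WT arrays and 0.20 to 0.32 on S3KO arrays.

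**Figure D3:**
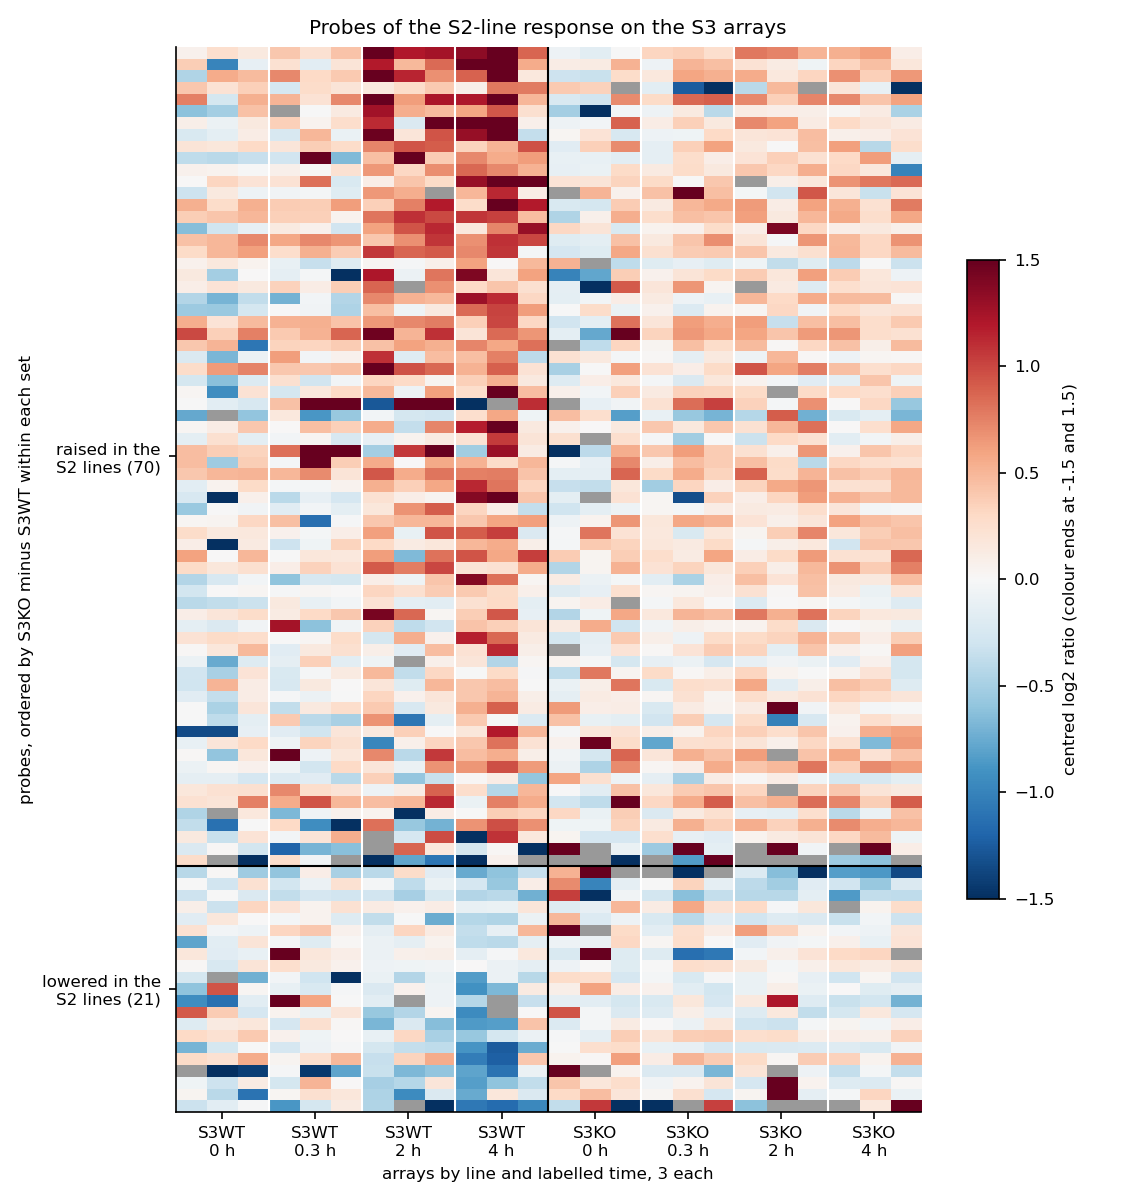
Centred log2 ratio (colour, with grey for no value) of each of the 70 S2-raised (top) and 21 S2-lowered (bottom) probes on the S3WT and S3KO arrays at 0, 0.3, 2 and 4 h; rows are probes in order of the S3KO minus S3WT difference, so the order itself is no result. Colours are capped at both ends of the scale. Over the raised probes, the array means were 0.24 to 0.84 on the S3WT arrays at 2 and 4 h and 0.20 to 0.32 on the S3KO arrays, and single probes were also high on some S3WT arrays at 0.3 h.

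Among the S2-raised probes measured on all 12 arrays, 3 of 58 had every S3KO array below every S3WT array (background 0.829% of probes): those of Hbegf, Csdc2 and Foxo1. Foxo1 lies outside the rule for named genes and is given because of this count, after its values were seen. Hbegf encodes a ligand of the EGF receptor. Its ratio on S3WT arrays was 2.43, 1.21 and 1.25 at 2 h and 1.34, 2.62 and 0.87 at 4 h. On S3KO arrays it was 0.79, 0.74 and 0.51 at 2 h and 0.53, 0.62 and 0.10 at 4 h. The highest S3KO value was below the lowest S3WT value. At the baseline S3KO had -0.16 to 0.00 at 0 h and 0.26 to 0.36 at 0.3 h, and 5 of the 6 later S3KO values were above these. The difference was -1.07 ± 0.31 (SE; limma, unadjusted p = 0.00511, adjusted p = 0.484) and -0.93 ± 0.34 after baseline subtraction.

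Csdc2 encodes an RNA-binding protein with a cold-shock domain. On S3WT arrays it had 1.19, 0.48 and 0.85 at 2 h and 1.59, 2.35 and 0.55 at 4 h, and on S3KO arrays 0.21, 0.13 and -0.06 at 2 h and 0.32, 0.46 and 0.17 at 4 h. The lowest S3WT value was close to the highest S3KO value. The difference was -0.97 ± 0.27 (SE) and -1.32 ± 0.36 after baseline subtraction. A further Csdc2 probe disagreed: its values ran from -4.63 to 1.81 on S3WT arrays and from -0.93 to 5.90 on S3KO arrays at 2 and 4 h, and averaging the probes turned the sign of the direct difference to 0.32. Foxo1, a forkhead transcription factor that is regulated by Akt, had 1.26, 0.55, 0.47, 0.59, 0.93 and 0.24 on S3WT arrays and 0.13, 0.10, 0.09, 0.03, 0.13 and -0.48 on S3KO arrays. Its difference was -0.68 ± 0.18 (SE), but -0.36 ± 0.35 after baseline subtraction.

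The groups overlapped for other S2-raised genes. Smurf1, a ubiquitin ligase that acts on Smads and on the receptor, had 0.80, 1.10 and 0.99 at 2 h and 1.08, 1.03 and 0.46 at 4 h on S3WT arrays, against 0.62, 0.15 and 0.50 and then 0.57, 0.26 and 0.58 on S3KO arrays. Only the last S3WT array reached into the S3KO range. The difference was -0.46 ± 0.14 (SE) and -0.34 ± 0.22 after baseline subtraction. On the 0 h arrays, which by label held untreated RNA in both channels, Smurf1 was already at 0.37, 0.41 and 0.50 in S3WT, so a ratio above 0 is not by itself a response for this probe.

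Gadd45b, a stress-inducible growth arrest gene, spread widely in S3WT: 2.57, 0.63 and 1.23 at 2 h and 1.21, 1.49 and 0.50 at 4 h. In S3KO it was tighter, with 0.72, 0.36 and 0.73 at 2 h and 0.72, 0.42 and 0.60 at 4 h. The difference was -0.68 ± 0.30 (SE), and 2 S3WT arrays lay within the S3KO range. At 0 and 0.3 h Gadd45b already ran from -0.29 to 0.89 in S3KO and from -0.27 to 0.76 in S3WT. After baseline subtraction the Gadd45b difference was -0.64 ± 0.41. Snai1, a repressor of epithelial genes, averaged 0.80 ± 0.45 (SD, n = 6) and 0.47 ± 0.19 (SD, n = 6), a difference of -0.33 ± 0.18 (SE). S3WT was already at 0.36 to 1.00 on its 0 and 0.3 h arrays, and after baseline subtraction the Snai1 difference was -0.09 ± 0.43. Skil, the corepressor SnoN, differed by -0.19 ± 0.16 (SE), with the S3WT values of 0.17, 0.68 and 0.90 at 2 h and 0.32, 0.10 and -0.35 at 4 h against -0.03 to 0.27 in S3KO. Smurf2, a relative of Smurf1, differed by -0.13 on the S2-raised probe.

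Both circadian genes of the S2-raised list, Noct and Cry1, had the lower mean value in S3KO. Noct, a rhythmically expressed phosphatase, had 0.60 to 1.13 at 2 h and 0.16 to 1.30 at 4 h in S3WT. In S3KO it lay between 0.08 and 0.31 on 5 arrays, with 1.41 on 1 array at 2 h. Its difference was -0.45 ± 0.25 (SE) and -0.76 ± 0.30 after baseline subtraction. Cry1, a repressor of the clock, differed by -0.42 ± 0.14 (SE), with -0.39 to 0.00 on S3KO arrays and -0.02 to 0.61 on S3WT arrays. Creb3l2, a membrane-bound transcription factor of the secretory pathway, differed by -0.35 ± 0.18 (SE) directly and by -0.79 ± 0.22 after baseline subtraction, and the Rab GTPase-activating protein Tbc1d1 by -0.34 ± 0.14 and -0.67 ± 0.18. Against the direction of the list, Ccn1, a matricellular protein, differed by 0.46 ± 0.74 (SE) with missing values, and by -0.31 without replicate 1 of S3WT at 4 h.

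Promoters are shown for 3 of these genes with the lower values in S3KO, to let the Smad box, the short core of Smad-binding elements, be seen in place; only promoters that hold it are printed, and that of Foxo1 holds 0. They are RefSeq sequences of build GRCm38.p6 that run from 250 bases before to 50 after the gene's start, with the motif CAGAC on either strand (GTCTG on the other) in capitals: Smurf1 on the minus strand at chr5:144965781-144966080, Gadd45b on the plus strand at chr10:80929841-80930140, and Cry1 on the minus strand at chr10:85185005-85185304.
Smurf1: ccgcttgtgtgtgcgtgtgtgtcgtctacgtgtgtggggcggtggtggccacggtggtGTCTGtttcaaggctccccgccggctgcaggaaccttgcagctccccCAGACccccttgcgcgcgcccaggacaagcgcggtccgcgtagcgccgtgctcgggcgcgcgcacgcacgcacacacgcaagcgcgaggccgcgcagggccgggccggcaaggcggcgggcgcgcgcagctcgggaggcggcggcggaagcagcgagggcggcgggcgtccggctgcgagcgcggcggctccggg
Gadd45b: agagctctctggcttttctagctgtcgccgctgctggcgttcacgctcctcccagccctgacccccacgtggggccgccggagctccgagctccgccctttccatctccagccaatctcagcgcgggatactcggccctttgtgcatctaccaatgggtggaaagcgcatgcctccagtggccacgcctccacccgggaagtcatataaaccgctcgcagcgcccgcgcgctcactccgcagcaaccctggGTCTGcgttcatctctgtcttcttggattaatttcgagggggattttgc
Cry1: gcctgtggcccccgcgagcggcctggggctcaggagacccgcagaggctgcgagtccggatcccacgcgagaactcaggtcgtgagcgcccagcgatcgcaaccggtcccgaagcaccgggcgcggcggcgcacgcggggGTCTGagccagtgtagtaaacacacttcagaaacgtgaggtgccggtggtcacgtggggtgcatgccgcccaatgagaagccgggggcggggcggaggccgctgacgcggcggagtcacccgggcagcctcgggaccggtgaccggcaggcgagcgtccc
Smurf1 holds 2 matches and the others 1 each. Promoters were on file for 38 of the 53 named S2-raised genes. CAGAC was found in 31 of their 47 promoters (66.0%), in 6 of 14 promoters of 12 S2-lowered genes (42.9%) and in 49.6% of all 32851 promoters of this length. The palindrome GTCTAGAC was in 0 of the 47 and in 0.213% of all, and the AP-1 motif TGACTCA in 4.26% and 5.2%. The E-box CACGTG, which the clock factors bind, was in 12.8% and 7.15%. Gadd45b and Cry1 hold 1 CACGTG each. A match is a description of the letters and not a binding site.

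Among the S2-lowered genes, most S3WT means were below 0, and most S3KO means were higher than those of S3WT. The S3KO mean was not always nearer 0: Cdc42ep2 averaged -0.22 in S3WT and 0.27 in S3KO, and Trim8 0.06 and 0.18. Arid5b, a DNA-binding cofactor of a histone demethylase, had -0.68, -0.21 and -0.64 at 2 h and -0.85, -0.83 and 0.43 at 4 h on S3WT arrays. On S3KO arrays it had -0.30, -0.32 and -0.03 at 2 h and 0.04, -0.04 and 0.10 at 4 h. The S3WT array at 0.43 was the highest of the 12, and the difference was 0.37 ± 0.21 (SE). The sorting nexin Snx33 differed by 0.60 ± 0.29 (SE), Fam110b by 0.72 ± 0.34, the adaptor Traf3ip2 by 0.39 ± 0.15 and the Cdc42 effector Cdc42ep2 by 0.49 ± 0.30. For Snx33 and Fam110b, replicate 2 of S3KO at 2 h was high, at 1.63 and 1.79. The exceptions to a higher mean in S3KO were Txnip, an inhibitor of thioredoxin, at -0.16 ± 0.14 (SE), Tgfbr3, a co-receptor of TGF-β whose probes differ in sign, at -0.71 ± 0.33, and Pcmtd2, at 0.00.

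**Figure D4:**
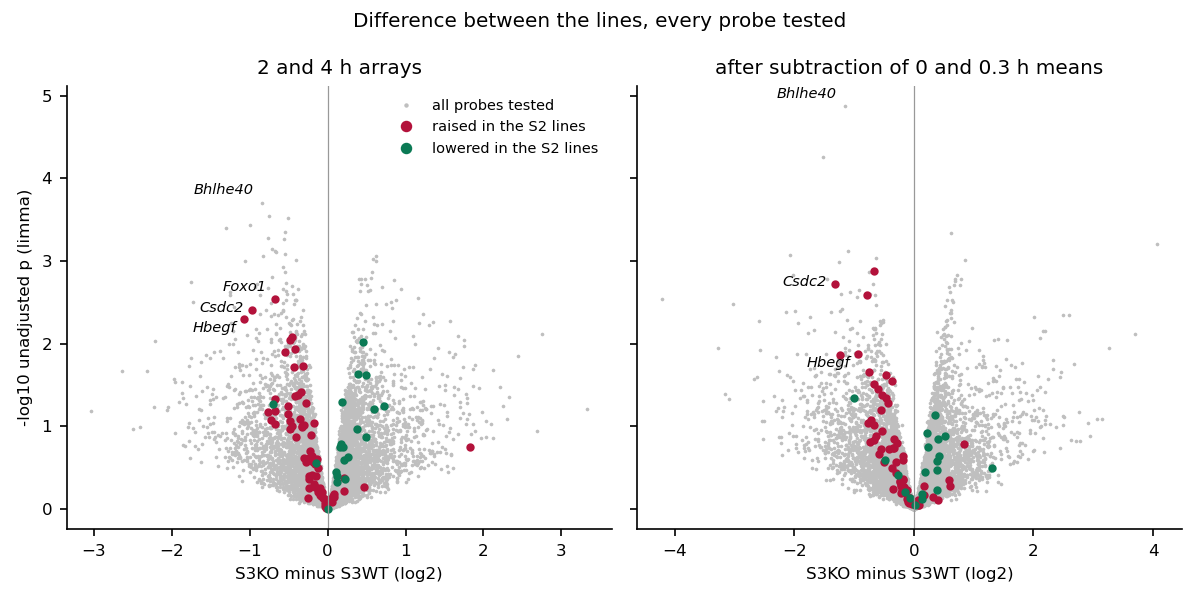
S3KO minus S3WT difference (horizontal axis, log2) against -log10 of the unadjusted limma p (vertical axis) for every probe tested, directly at 2 and 4 h (left, 8349 probes) and after subtraction of the 0 and 0.3 h means (right, 7612 probes); probes raised (red) and lowered (green) in the S2 lines are marked. Of the raised probes, 60 of 69 lie left of 0 on the left and 58 of 69 on the right.

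Of 6 probes for TGF-β ligands and their activators, 5 were above 0 (50.3% of all probes), with a median of 0.11. Of 9 probes for receptors and co-receptors, 5 were below 0 (49.7% of all probes), with a median of -0.14. Tgfbr1, the type I receptor kinase, had 0.39, -0.11 and 0.08 at 2 h and 0.54, 0.49 and 0.50 at 4 h in S3WT, against -0.33, 0.16 and -0.17 and then 0.01, -0.12 and -0.18 in S3KO. At 2 h, 2 of the 3 S3WT arrays lay in the S3KO range, and at 4 h none did. The difference was -0.42 ± 0.13 (SE) and -0.32 ± 0.28 after baseline subtraction. Bmpr2, the type II receptor for bone morphogenetic proteins, was at 0.40 ± 0.18 (SE) in the other direction, and at 0.07 ± 0.28 after baseline subtraction.

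Of 28 probes for Smads and their partners, 16 were below 0 (49.7% of all probes), with a median of -0.03. An unadjusted p below 0.05 was found for 4 of the 28 with the lower value in S3KO (4.97% of all probes) and for 1 with the higher (3.72% of all probes). Smad7, the inhibitory Smad, differed by 0.13 ± 0.18 (SE) and averaged 0.06 ± 0.39 (SD, n = 6) in S3WT and 0.19 ± 0.17 (SD, n = 6) in S3KO. Nedd4l, a ubiquitin ligase for activated Smad2 and Smad3, was the probe with the higher value: -0.30 to 0.04 on S3WT arrays and 0.05 to 0.42 on S3KO arrays, a difference of 0.35 ± 0.10 (SE), which was 0.13 ± 0.15 after baseline subtraction. Crebbp, the acetyltransferase CBP and a Smad coactivator, had 0.07 to 0.56 on S3WT arrays and -0.35 to 0.06 on S3KO arrays, a difference of -0.44 ± 0.11 (SE) on 1 of its 3 probes. At 0 and 0.3 h it was already at 0.27 to 0.52 in S3WT and at -0.52 to 0.40 in S3KO, and after baseline subtraction the difference was 0.02 ± 0.21.

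In the direct comparison, the list of known TGF-β-induced genes had the lowest median of the lists, at -0.36. Of its 18 probes 15 were below 0 (49.7% of all probes), and 6 had an unadjusted p below 0.05 with the lower value in S3KO (4.97% of all probes). Of these 18 probes 5 are also S2-raised, and 11 of the other 13 were below 0. After baseline subtraction 13 of 18 were below 0 (50.7% of all probes). The median was then -0.25 and no longer the lowest, with the circadian genes at -0.57. Klf10, a zinc-finger factor known as an early TGF-β gene, had 0.48, 1.36 and 0.88 at 2 h and -0.31, 0.22 and 0.21 at 4 h in S3WT against -0.09 to 0.28 in S3KO. The gap was thus at 2 h, where all 3 S3WT arrays were above all 3 S3KO arrays. Over both times the difference was -0.41 ± 0.21 (SE), and -0.63 ± 0.23 after baseline subtraction. Sphk1, a sphingosine kinase, differed by -0.96 ± 0.38 (SE) on 1 of 2 probes and by -0.47 ± 0.41 after baseline subtraction. Tnc, the matrix protein tenascin C, differed by -0.39 ± 0.17 directly but by 0.83 ± 0.65 after subtraction, with -4.39 and -0.15 on the 2 measured S3KO arrays at 0 h.

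Immediate early and AP-1 genes were below 0 for 11 of 13 probes (49.7% of all probes), with a median of -0.23. Of the 13 probes 1 is S2-raised. After baseline subtraction 8 of 12 were below 0 (50.7% of all probes), with a median of -0.21. Maff, a small Maf transcription factor, had 0.11 to 1.25 in S3WT and -0.02 to 0.71 in S3KO. Its difference was -0.55 ± 0.24 (SE) directly and -0.40 ± 0.29 after baseline subtraction. Nr4a1, an orphan nuclear receptor, differed by -0.66 ± 0.37 on the probe with the smaller p, with 2.35 on 1 S3WT array at 2 h. On the S3WT arrays at 0.3 h this probe was already at 2.39, 1.39 and 1.75. After baseline subtraction its difference was -0.43 ± 0.93. Of 11 probes for circadian genes 8 were below 0 (49.7% of all probes), with a median of -0.27. Of these 11 the probes of Noct and Cry1 are also S2-raised. That of Bhlhe40 is also in the TGF-β-induced list, so the lists do not count separate genes.

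Wwtr1, the Hippo pathway coactivator TAZ, had 0.16, 0.49 and 0.30 at 2 h and 0.67 and 0.22 on the 2 measured arrays at 4 h in S3WT. In S3KO it had -0.25, 0.02 and -0.12 at 2 h and -0.31, 0.00 and -0.39 at 4 h. None of the S3KO values reached the lowest of S3WT. The difference was -0.54 ± 0.14 (SE) and -0.55 ± 0.19 after baseline subtraction. The whole list of Wnt, Notch and Hippo genes had 14 of 26 probes below 0 (49.7% of all probes) and a median of -0.07.

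**Figure D5:**
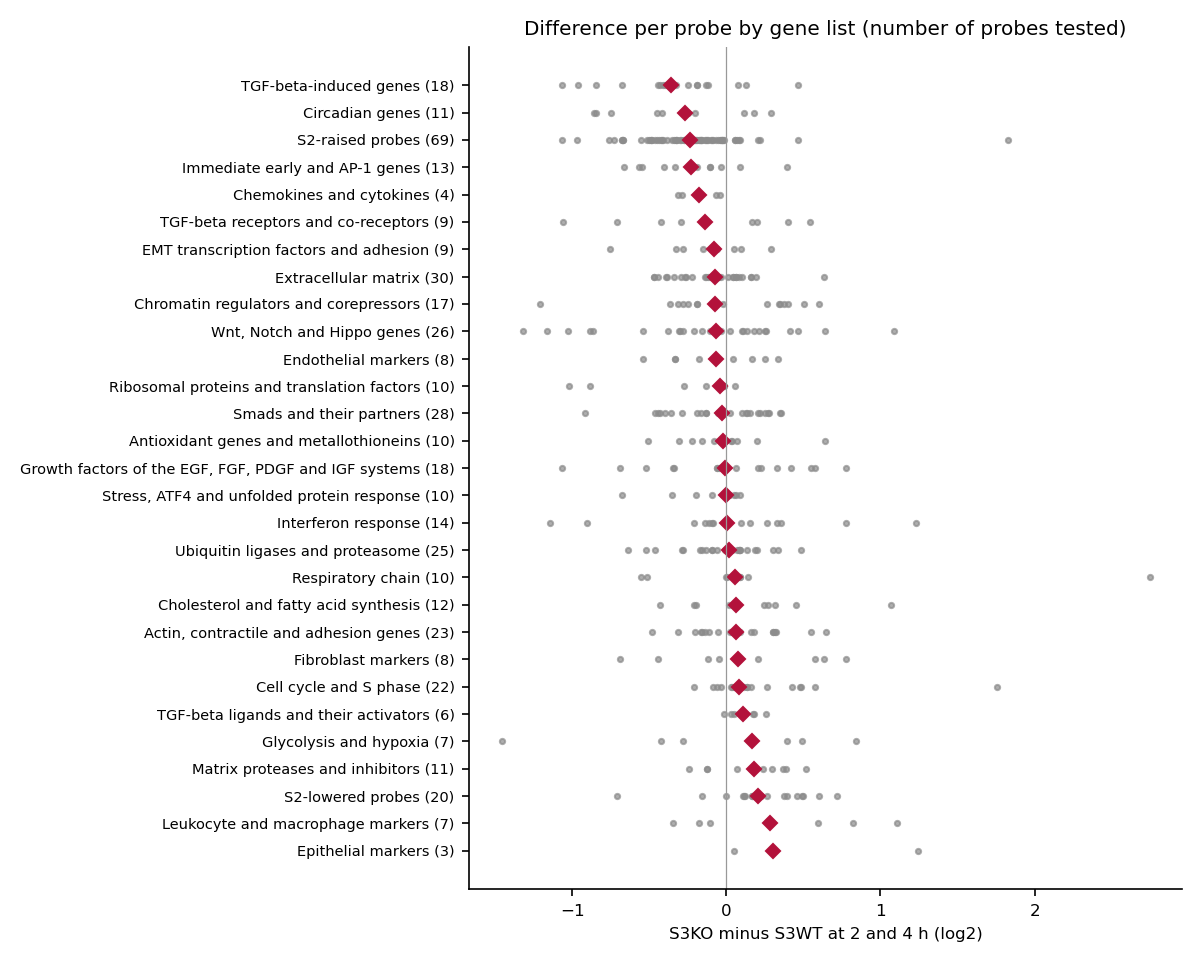
S3KO minus S3WT difference at 2 and 4 h (horizontal axis, log2) of each probe (grey) in each gene list and the list median (red diamond), ordered by median, with the number of probes tested in brackets. The TGF-β-induced list has the lowest median, -0.36, followed by the circadian genes at -0.27 and the S2-raised probes at -0.24, while the median over all probes is 0.00.

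The 10 named probes with the smallest p in the direct comparison were those of Bhlhe40, Chd7, Plagl2, Ctnna2, Noa1, Tbk1, Zmiz1, Add3, Aqp8 and Msantd3, of which 9 had the lower value in S3KO. None is in the S2-raised list. Plagl2, a zinc-finger transcription factor, had 0.09 to 0.31 on S3WT arrays and -0.55 to -0.13 on the 5 measured S3KO arrays, a difference of -0.55 ± 0.11 (SE) and of -0.63 ± 0.16 after baseline subtraction. Zmiz1, a transcriptional coactivator, had 0.43 to 1.37 in S3WT and -0.46 to 0.51 in S3KO, and its difference of -0.66 ± 0.14 was -0.52 ± 0.25 after subtraction. Add3, an adducin of the membrane skeleton, differed by -0.54 ± 0.12 directly and -0.52 ± 0.17 after subtraction on 1 of its 5 probes. The other Add3 probes differed in sign, at -0.58 ± 0.53, -0.48 ± 0.40, 0.27 ± 0.37 and 1.94 ± 0.78 directly.

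For 4 other genes of that group the value lay nearer 0 once the baseline was subtracted. Tbk1, a kinase of innate immune signalling, differed by -0.71 ± 0.15 (SE) directly and by -0.08 ± 0.53 after baseline subtraction. The other Tbk1 probe was at 0.30 ± 0.59 directly. The mitochondrial GTPase Noa1 went from -0.56 ± 0.12 to -0.15 ± 0.38, the catenin Ctnna2 from -0.77 ± 0.16 to -0.17 ± 0.21, and Msantd3 from -0.41 ± 0.09 to -0.12 ± 0.16. Chd7, a chromatin remodeller, differed by -1.31 ± 0.25 and could not be tested after subtraction because it was measured on 1 array of each line at 0 h. The other Chd7 probe was at 0.26 ± 0.63 directly. Aqp8, a water channel, differed by 0.62 ± 0.12 directly and 0.71 ± 0.86 after subtraction, and was measured on 4 S3KO and 5 S3WT arrays. The other Aqp8 probe was at -0.03 ± 0.16 directly.

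After baseline subtraction, the named probes with the smallest p were those of Bhlhe40, Myl6b, Fancm, Ncl, Plagl2, Zfas1, Slc25a33, Tbc1d1, Golph3 and St8sia2. Slc25a33, a mitochondrial nucleotide carrier, had 0.28 to 1.73 on S3WT and -0.75 to 0.05 on S3KO arrays at 2 and 4 h, and its difference was -0.91 ± 0.22 (SE) directly and -1.26 ± 0.32 after subtraction. Myl6b, a myosin light chain, was at 0.62 ± 0.15 (SE) and the noncoding RNA Zfas1 at 0.85 ± 0.22, both with S3WT values that were lower at 2 and 4 h than at 0 and 0.3 h. The Golgi protein Golph3 was at -0.75 ± 0.20. Other probes of these genes disagreed after subtraction: that of Golph3 was at 0.18 ± 0.26, that of Myl6b at -1.09 ± 1.80 and that of Fancm at -0.09 ± 0.75. The other Fancm probe was at 0.22 ± 0.42 directly. For the genes with the largest differences the 0 h values were scattered. Nucleolin (Ncl), at -2.06 ± 0.51 after subtraction and -1.02 ± 0.45 directly, had 1.73, 2.00 and 0.42 on S3KO 0 h arrays, the helicase gene Fancm, at 4.07 ± 0.96 and 2.44 ± 0.80, had -1.77, -2.52 and 0.78, and St8sia2, a polysialyltransferase gene at -2.02 ± 0.52 and -0.86 ± 0.22, had 2.32 and 0.54 on the 2 measured ones.

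The number of calls in this comparison turned on the S3KO arrays at 0 h. Without replicate 3 of S3KO at 0 h, 34 probes passed limma, 16 with the higher and 18 with the lower value in S3KO, among them those of Bhlhe40, Ncl, Fancm, Myl6b and Zfas1. Without replicates 1 and 2, which leaves 1 S3KO array at 0 h that is assumed to vary like the other groups, 14 passed, 10 with the higher and 4 with the lower value, and Bhlhe40 was not among them. The S2-raised probes were below 0 for 43 to 61 of those tested when each of the 24 arrays was left out in turn. The lowest of these counts, 43 of 61, was without replicate 3 of S3KO at 0 h, where 14 of 17 S2-lowered probes were above 0. Without replicates 1 and 2 the counts were 60 of 67 and 13 of 19.

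The baseline-subtracted differences of 34 genes were recomputed without replicate 3 of S3KO at 0 h and then without replicates 1 and 2, and the values below follow that order. Without replicate 3, 21 stayed within 1.5 times their value, 9 moved further or changed sign and 4 were measured on too few arrays. Without replicates 1 and 2 these numbers were 17, 15 and 2. Bhlhe40 was at -1.24 and -0.98, Hbegf at -0.91 and -0.97, Csdc2 at -1.25 and -1.45, Creb3l2 at -0.75 and -0.85, Noct at -0.84 and -0.60, Tbc1d1 at -0.71 and -0.60, Klf10 at -0.69 and -0.51 and Wwtr1 at -0.58 and -0.51. These 8 genes thus kept a lower value in S3KO with either set of 0 h arrays.

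Other genes depended more on which 0 h arrays were kept. Foxo1 was at -0.20 and -0.68, Smurf1 at -0.22 and -0.58, Tgfbr1 at -0.17 and -0.61, Gadd45b at -0.48 and -0.96 and Snai1 at 0.29 and -0.84. Of the genes near 0, Crebbp was at 0.17 and -0.27, Bmpr2 at 0.01 and 0.18, Noa1 at -0.06 and -0.33, Tbk1 at -0.14 and 0.05, Msantd3 at -0.15 and -0.05, Nedd4l at 0.16 and 0.07 and Aqp8 at 0.22 and 1.70. Cry1, Sphk1, Plagl2 and Tnc, which could be given without replicates 1 and 2 alone, were at -0.21, -0.21, -0.54 and -0.23. The genes with the smallest p after subtraction stayed on their side of 0 on the probe that stands for each. Ncl was at -2.30 and -1.58, Fancm at 4.56 and 3.09 and Slc25a33 at -1.38 and -1.001. Zfas1 was at 0.95 and 0.63, Golph3 at -0.81 and -0.62 and Myl6b at 0.67 and 0.53. Zmiz1 was at -0.51 and -0.53 and Add3 at -0.59 and -0.40, and neither value of St8sia2 (-2.02) nor of Ctnna2 (-0.17) used replicate 3.

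Whether the lines differed more at 2 h or at 4 h could not be resolved. The change of the difference between the times passed limma for 0 of 8349 probes (0%), with a smallest adjusted p of 0.988, and 188 probes (2.25%) had an unadjusted p below 0.05, 95 (1.14%) with a difference that was higher at 4 h and 93 (1.11%) with one that was lower. The 5 named probes with the smallest p were those of Mad2l1bp, Lmo1, Zfp532, Srpk3 and F9. For the S2-raised probes, the array means were 0.43 ± 0.17 (SD, n = 3) at 2 h and 0.51 ± 0.30 (SD, n = 3) at 4 h in S3WT, and 0.28 ± 0.04 (SD, n = 3) and 0.22 ± 0.03 (SD, n = 3) in S3KO.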

How the data were processed

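The deposited values are signed log2 ratios between the channels of each array, as the file headers give them in a series matrix. The sources used here do not give dyes, scanner, background correction or normalization. Blank cells numbered 41670. A further 1344 values at 16.61, an upper limit, were set to missing (threshold 16.6), and each array was centred on its median. The platform annotation, updated through gene IDs, gave 1 symbol to 7348 probes (7274 found in the RefSeq gene table), more than 1 to 399 and no symbol to 1229.

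Probes with a value on at least 2 arrays of each group entered limma 3.58.1 (lmFit and eBayes, R 4.3.3), with Benjamini-Hochberg adjustment over all probes tested and a threshold of 0.05. The direct fit had line and time as terms over 12 arrays. The baseline fit used group means over 24 arrays, with 0 and 0.3 h weighted equally, and the S2-line response was fitted on its own 24 arrays. The procedure was run on simulated data with the same missing values and independent noise on each array. The simulation held no correlation between arrays, so it cannot show how the correlations described above affect the fits.

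As fewer than 3 probes were called, the rule named the 10 probes with the smallest p in each of the first 2 comparisons (1 symbol, no clone identifiers). It added 5 by p for line by time, up to 3 per gene list, the 10 largest each way of the S2-line response and a set of TGF-β genes. Where a gene has more than 1 probe, the one with the smallest direct p stands for it. Part of this set is described. The arrays, gene lists and rules were chosen with earlier results of these data known. Alternatives were no centring, scaling, keeping limit values, other baselines, complete probes, array weights, spread from all 74 arrays, averaged probes, the replicate number as a block and leaving out each array.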

Additional observations from a re-analysis of the deposited data

Results flagged for a closer look

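The 1 h arrays, which the comparison leaves out, carried values above every 0 h array of the same line for some of the TGF-β genes. In S3WT, the 3 arrays at 1 h averaged 1.27 for Bhlhe40, 1.14 for Hbegf, 1.38 for Klf10, 0.84 for Noct and 0.62 for Skil, and each of the 3 was above the 3 S3WT arrays at 0 h. In S3KO, of these genes Skil alone lay above its 0 h arrays on both 1 h arrays, at an average of 0.091, with 0.03 on the lower array against -0.07 on the highest 0 h array. These were picked out as signal in arrays outside the main measurement, and the difference between the lines at 1 h was not tested.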

How the results depend on the processing

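The direct comparison called 0 probes in each alternative and with each array left out. After baseline subtraction, 1 probe (Bhlhe40) passed with probes on every array and 1 (Bhlhe40) with array weights, 2 (Epha8 and Igf2) with the 0.3 h baseline only, and 14 without replicates 1 and 2 of S3KO at 0 h, an alternative chosen after seeing the data. Leaving out 1 array gave 0 to 34, the 34 without replicate 3 of S3KO at 0 h. Line by time gave 1 (a Pdgfra probe) with the spread from all 74 arrays, and 0 to 2 with 1 array left out. The S2-line response gave 48 calls without centring and 156 with the spread from all 74 arrays. The S2-raised probes below 0 numbered 53 to 61 (direct) and 44 to 60 (after subtraction) over the alternatives, and the S2-lowered probes above 0 numbered 12 to 18 and 10 to 16.

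The replicate numbers were not shown to pair the arrays: deviations of same-numbered arrays from their group means correlated at -0.009 to 0.106 over 6 pairs, 1 of them over 0.1, and those of different numbers at -0.116 to 0.045. Raw ratios of arrays numbered 3 did correlate across times and lines, as given with the array correlations. With the replicate block, 0 probes passed in the direct, baseline and line by time comparisons.

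Of the 47 genes given a direct value, 44 kept their sign under every setting. Of the 34 genes given a value after baseline subtraction, 23 kept their sign under every setting and 11 did not. Averaging a gene's probes turned Csdc2 to 0.32 directly and to 0.57 after subtraction. Of the values after subtraction, averaging also turned Myl6b to -0.23 and St8sia2 to 0.28. Keeping values at the limit turned Aqp8 to -2.17 directly and to -2.06 after subtraction. Near 0, Crebbp after subtraction was -0.038 without centring, -0.067 with the 0.3 h baseline and -0.27 without replicates 1 and 2 of S3KO at 0 h, where Tbk1 was 0.048 and Tnc -0.23. With the 0 h baseline Noa1 was 0.30, Snai1 0.083, Bmpr2 -0.12 and Msantd3 0.080, with array weights Bmpr2 was -0.054 and Snai1 0.045, and with the 0.3 h baseline Tnc was -0.39. With 1 array left out, Ccn1 ranged from -0.31 to 0.86 (direct), and after subtraction Snai1 from -0.35 to 0.29, Bmpr2 from -0.077 to 0.21, Crebbp from -0.063 to 0.17, Noa1 from -0.50 to 0.12 and Tbk1 from -0.39 to 0.30. The cause of these turns was not tested.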

Other observations

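In the direct comparison, the medians of the matrix, cell cycle and translation gene lists lay closer to 0 than that of the TGF-β-induced genes. Of 30 probes for extracellular matrix genes 19 were below 0 (49.7% of all probes), with a median of -0.08. Lysyl oxidase (Lox), which cross-links collagen, had 0.20, 0.36 and -0.24 at 2 h and 0.71, 0.28 and 0.40 at 4 h in S3WT, and -0.34 to 0.08 in S3KO. Its difference was -0.39 ± 0.15 (SE). Of 11 probes for matrix proteases and their inhibitors 8 were above 0, with a median of 0.18, and of 22 for the cell cycle 18 were above 0, with a median of 0.08, against 50.3% of all probes. Ribosomal protein and translation factor probes were below 0 for 9 of 10 (49.7% of all probes), with a median of -0.04. After baseline subtraction they were below 0 for 2 of 8 (50.7% of all probes), with a median of 0.21.

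For 18 of the 53 named S2-raised genes more than 1 probe was tested. A further probe of such a gene can itself be S2-raised, as for Cxxc5 and Zfp362. The tested probes of the named S2-raised genes that were not themselves S2-raised numbered 19. Of these 19 probes 16 had the lower value in S3KO, with a median of -0.22.

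Differences varied with the position of a probe in the numbering of the table. In the 18 consecutive blocks of 500 probe numbers, the median difference ran from -0.10 to 0.11 in the direct comparison and from -0.18 to 0.13 after baseline subtraction. Of the 16 probes called with the higher value in S3KO without replicate 3 of S3KO at 0 h, 12 (75%) had numbers from 6501 to 7500, the adjoining pair of blocks that holds most of them, against 3 of the 18 called with the lower value (16.7%) and 11.0% of all 7612 probes tested. The range was chosen on these calls, and what lies behind it was not tested.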
